A study of Sus scrofa with 14 samples.

Results

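Genes that mark the mesothelium were followed through the expression and compartment data of 2 fat depots in 2 pig breeds. The list held 10 genes, WT1, MSLN, UPK3B, UPK1B, LRRN4, KRT8, KRT18, KRT19, CALB2 and BNC1, and it was fixed by gene symbol. By the symbol paired with their Ensembl identifier, 6 of the 10 had values in the expression tables (WT1, UPK1B, KRT8, KRT18, CALB2 and BNC1), out of 21280 genes in all, and all 6 passed the filter on low values. On the Sscrofa11.1 assembly 9 of the 10 could be placed, all but MSLN, so that UPK3B, LRRN4 and KRT19 were described at the level of compartments alone.

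The greater omentum (GOM), a visceral depot, and the upper layer of backfat (ULB), a subcutaneous depot, were sampled from healthy adult female pigs at an age of 2 years. Wild boars had been taken into captivity early in life, Bama pigs came from a Bama Xiang line without long inbreeding, and both breeds were kept on the same farm. RNA-seq and Hi-C, which counts contacts between chromatin segments, were each available for 7 libraries: 2 wild boar GOM, 2 Bama pig GOM, 2 wild boar ULB and 1 Bama pig ULB, which carries the replicate number 2. The libraries of a group come from different animals, and the same pigs gave both depots. The RNA-seq libraries held 10833153 to 18627076 estimated counts. RNA was extracted from whole tissue, whereas the Hi-C nuclei were taken from the floating, adipocyte-rich layer of the tissue after cross-linking.

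The mesothelium is the flat epithelium-like sheet that covers the peritoneal cavity and the organs in it, the omentum included. Its cells carry keratin filaments and microvilli like an epithelium, yet they derive from mesoderm and can take on fibroblast features. Subcutaneous backfat has no serosal surface. WT1, a zinc finger transcription factor of the developing mesothelium, kidney and gonad, is also known from progenitors of visceral fat. In these bulk tissues, fewer cells of a type and less RNA per cell cannot be told apart.

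The 4 members with the largest difference between depots all passed the expression test described below. At WT1 and UPK1B the compartment score also passed its test, in the main fit. For this reason the promoters of these 4 members are printed below. Each runs from 250 bases before to 50 bases from the RefSeq start site, on the strand of the gene, 5′ to 3′, in the Sscrofa11.1 genome. Capitals mark matches, on either strand, to 6 short motifs that were searched: the box of the basal promoter that TBP binds (TATAAA), the site of TEAD factors (GGAATG), the box that NF-Y binds (CCAAT), the site of SP1 (GGGCGG), the core shared by WT1 and EGR factors (GCGTGGG) and the site of GATA factors (AGATAA).
WT1, chr2:28411217-28411516, plus strand: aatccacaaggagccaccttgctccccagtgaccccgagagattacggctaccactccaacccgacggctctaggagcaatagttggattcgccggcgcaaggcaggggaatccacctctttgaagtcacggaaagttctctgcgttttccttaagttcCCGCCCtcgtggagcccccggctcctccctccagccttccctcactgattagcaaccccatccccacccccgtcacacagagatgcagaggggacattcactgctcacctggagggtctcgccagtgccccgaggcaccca
BNC1, chr7:51650929-51651228, plus strand: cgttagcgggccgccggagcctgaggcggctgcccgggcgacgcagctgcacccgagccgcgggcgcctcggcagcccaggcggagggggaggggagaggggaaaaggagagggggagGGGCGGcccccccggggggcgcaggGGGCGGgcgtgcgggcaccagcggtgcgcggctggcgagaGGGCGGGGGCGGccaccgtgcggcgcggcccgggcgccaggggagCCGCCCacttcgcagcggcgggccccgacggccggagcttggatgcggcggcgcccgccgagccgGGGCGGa
UPK1B, chr13:141026319-141026618, minus strand: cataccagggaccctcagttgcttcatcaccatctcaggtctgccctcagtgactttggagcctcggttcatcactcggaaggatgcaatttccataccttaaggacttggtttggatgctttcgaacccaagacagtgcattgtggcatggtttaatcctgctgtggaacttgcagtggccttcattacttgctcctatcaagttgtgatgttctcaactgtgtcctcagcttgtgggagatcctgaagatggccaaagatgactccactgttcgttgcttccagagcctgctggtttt
KRT8, chr5:18180228-18180527, minus strand: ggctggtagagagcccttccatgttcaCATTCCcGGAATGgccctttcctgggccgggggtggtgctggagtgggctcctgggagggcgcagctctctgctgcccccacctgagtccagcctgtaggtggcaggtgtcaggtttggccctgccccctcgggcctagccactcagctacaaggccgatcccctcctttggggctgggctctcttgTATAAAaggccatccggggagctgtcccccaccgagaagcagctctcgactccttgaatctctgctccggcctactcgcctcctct

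The 4 promoters had little in common in these letters. The BNC1 promoter consisted of G and C for 83.3% of its bases and held 6 SP1 matches, the WT1 promoter 60.3% with 1 SP1 match, and the KRT8 promoter 64.0% with 1 TBP box and 2 TEAD matches on opposite strands, 1 base apart. The UPK1B sequence, at 49.0% GC, matched none of the 6 motifs. Its annotated start site falls on the letters atg, so it may be the start of the coding part and not of the transcript. Whether the bases before it are the promoter was not tested, so its GC share and missing matches may reflect the annotation. The median over 19483 promoters of the same length was 58.7% GC. Of these promoters, 50.7% held the SP1 motif, 35.3% the NF-Y box, 11.9% the TEAD motif, 10.8% the TBP box, 9.05% the GATA motif and 6.95% the WT1 and EGR core. A match is a string of letters and not a measured binding site.

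WT1, BNC1, UPK1B and KRT8 were expressed in every GOM library at levels that no ULB library reached. The transcription factors WT1 and BNC1 are described first. In the GOM, the TPM of WT1 (ENSSSCG00000013316, chr2:28411467-28456007) was 72.90 and 19.88 for wild boar and 83.74 and 46.07 for Bama pig. In the ULB the TPM of WT1 was 0 and 0.10 in wild boar and 0.25 in Bama pig. The lowest GOM library thus lay 78.7-fold above the highest ULB library, with 587 to 2007 estimated counts in a GOM library against 0 to 5 in a ULB library.

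BNC1 (ENSSSCG00000001798, chr7:51651179-51679781) encodes basonuclin, a zinc finger protein of keratinocytes, germ cells and mesothelium. In the GOM its TPM was 13.84 and 5.98 for wild boar and 15.82 and 14.84 for Bama pig. Both wild boar ULB libraries had no estimated count of BNC1, and the Bama pig ULB library had a TPM of 0.17. Every GOM library was again above every ULB library, the lowest of the former 35.3-fold above the highest of the latter. Taken against a floor of 3 counts over the group, which covers counting error alone, BNC1 was at least 318-fold higher in wild boar GOM than in wild boar ULB.

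The membrane protein UPK1B (ENSSSCG00000011904, chr13:141013953-141026368), a tetraspanin first known from the plaques of the bladder lining, reached in the GOM a TPM of 103.94 and 52.78 for wild boar and of 54.26 and 53.29 for Bama pig. Its TPM in the ULB was 0.38 and 0 in wild boar and 0.87 in Bama pig. The depots did not overlap, and 3 of the 4 GOM libraries lay close together with wild boar GOM 1 above them.

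KRT8 (ENSSSCG00000000252, chr5:18172423-18180277), a type II keratin of simple epithelia, was the most abundant member, at 224 ± 154 TPM in the GOM (SD, n = 4). The GOM libraries had a TPM of 363.44 and 92.26 for wild boar and of 89.24 and 349.50 for Bama pig. In the ULB its TPM was 10.61 and 2.54 in wild boar and 4.93 in Bama pig. KRT8 was the member of these 4 that stayed measurable in every ULB library, with 48 to 211 estimated counts, and 1 library of each breed stood high in the GOM.

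**Figure D1:**
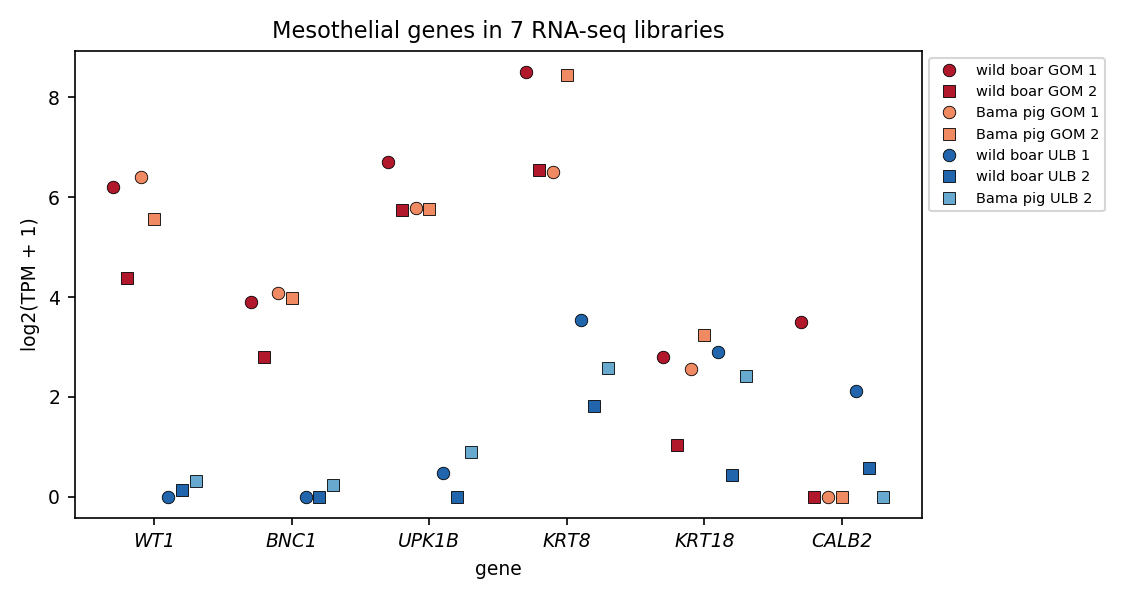
Expression of the 6 mesothelial genes with values, as log2(TPM + 1), in each of the 7 RNA-seq libraries (circles, replicate 1; squares, replicate 2). For WT1, BNC1, UPK1B and KRT8 the 4 GOM libraries sit above the 3 ULB libraries, whereas the depots overlap for KRT18 and CALB2.

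KRT18 and CALB2 did not separate the depots. KRT18 (ENSSSCG00000000253, chr5:18217686-18221432), the type I keratin with which KRT8 forms filaments, measured in the GOM 5.92 and 1.04 TPM for wild boar and 4.86 and 8.41 TPM for Bama pig. In the ULB the TPM of KRT18 was 6.46 and 0.35 in wild boar and 4.36 in Bama pig, so that all depots and breeds overlapped. The KRT18 gene lies beside KRT8, 37409 bp away, and its mean TPM in the GOM was 5.06 ± 3.06 (SD, n = 4). Keratins form a multigene family, so reads may be split between its members, and the levels of KRT8 and KRT18 are uncertain to that extent. Such a split was not tested.

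CALB2 (ENSSSCG00000002730, chr6:14392220-14420663), the calcium-binding protein calretinin, was listed at a TPM of 10.33 in wild boar GOM 1 and at 0 in the other 3 GOM libraries. In the ULB its TPM was 3.35 and 0.48 in wild boar and 0 in Bama pig. These values come from 76, 24 and 3 estimated counts in 3 wild boar libraries. CALB2 thus had counts in 3 of the 4 wild boar libraries, from both depots, and in 0 of the 3 Bama pig libraries, where a count of 0 allows up to 3 counts.

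Ranked by their TPM in the GOM, the members followed the order KRT8, UPK1B, WT1, BNC1, KRT18 and CALB2. UPK1B, at 66.1 ± 25.3, and WT1, at 55.6 ± 28.6 TPM (SD, n = 4 each), did not differ beyond their spread. The lowest KRT8 library lay below the highest UPK1B library, and the BNC1 libraries, at 12.6 ± 4.5 TPM, overlapped with those of KRT18. WT1 and BNC1 did not overlap in the GOM, since the highest BNC1 value of 15.82 stayed below the lowest WT1 value of 19.88.

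For the test between depots, the estimated counts of all 7 libraries entered a quasi-likelihood fit in edgeR with breed as a term. Of 17877 genes, 640 (3.58%) had an adjusted p below 0.05 together with a log2 fold change beyond 1 in either direction, and 410 of these (2.29%) were higher in the GOM. Of the 6 members, 4 passed both thresholds, all 4 higher in the GOM. Their log2 fold changes were 8.79 for WT1 (SE 0.75, adjusted p = 0.000314), 7.67 for BNC1 (SE 0.79, adjusted p = 0.000785), 7.25 for UPK1B (SE 0.78, adjusted p = 0.000937) and 5.16 for KRT8 (SE 0.76, adjusted p = 0.00526). KRT18, at 0.13 (SE 0.82, adjusted p = 0.943), and CALB2, at 1.5 (SE 1.64, adjusted p = 0.645), did not pass. The median log2 fold change was 6.21 over the 6 members and 0.0216 over all genes tested. Without a test, the TPM of every GOM library exceeded that of every ULB library for these 4 members and for 8.28% of all genes tested.

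The 4 calls held under each of the 16 alternatives that were run, which included leaving out every library in turn. The log2 fold change of KRT8 lay between 4.57 and 5.81 in these, that of UPK1B between 6.21 and 8.72, that of WT1 between 6.23 and 10.07 and that of BNC1 between 4.39 and 11.93. The sign of KRT18 changed with the library left out, from -0.59 without wild boar GOM 1 to 1.35, and CALB2 ran from -4.95 without wild boar GOM 1 to 3.64. Neither passed the thresholds in any of the alternatives.

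For these 4 members the direction was the same inside each breed. Within wild boar the fitted log2 fold change of KRT8 was 5.24 (SE 1.01) and within Bama pig 5.04 (SE 1.37). UPK1B differed by 8.76 (SE 0.82) in wild boar and by 5.49 (SE 0.94) in Bama pig. For WT1 these values were 10.10 (SE 0.96) and 7.51 (SE 1.11), and for BNC1 11.90 (SE 0.91) and 5.99 (SE 0.78). The wild boar values of WT1 and BNC1 rest on 2 and 0 estimated counts in the ULB, and their size and SE depend on the prior count of the fit. Each SE was derived from the F statistic, so it does not show how uncertain a value with no ULB counts is.

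A difference of the depot effect between the breeds was not detected by edgeR. In the test of the depot by breed interaction, 0 of 17877 genes (0.0%) had an adjusted p below 0.05, 869 had an unadjusted p below 0.05, and DESeq2 called 52 genes, of which 0 were members. Among the members BNC1 (interaction 5.91, SE 1.51) and UPK1B (interaction 3.27, SE 1.16) had an unadjusted p of 0.00456 and 0.0199 in the edgeR fit, and both had an adjusted p of 0.970. The Bama pig ULB is 1 library and was assumed to vary like the other groups.

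**Figure D2:**
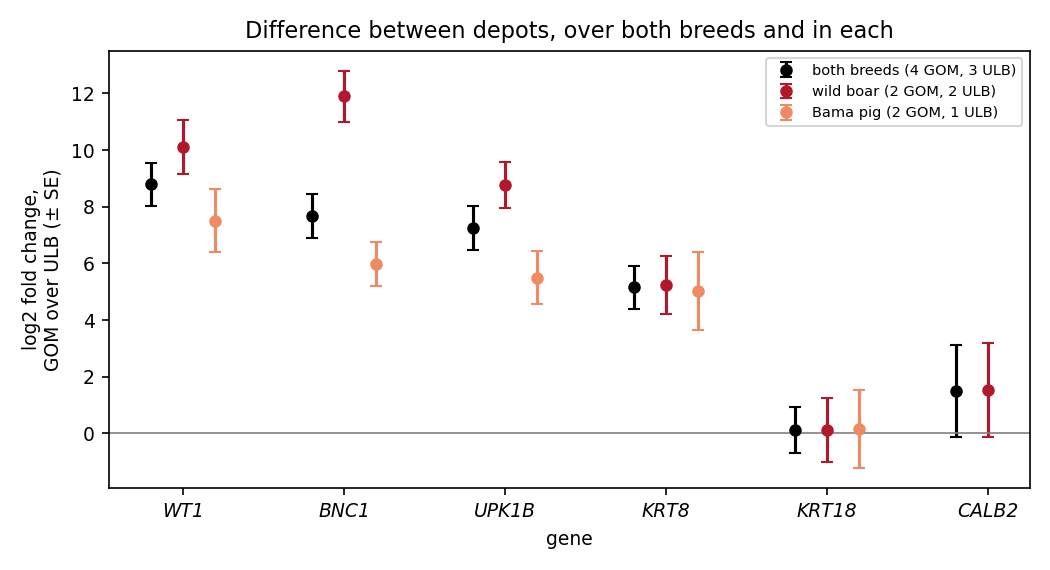
Log2 fold change of GOM over ULB (points) with its SE (bars), derived from the edgeR F statistic, for the 6 genes, over both breeds and within each breed. WT1, BNC1, UPK1B and KRT8 lie above 0 in each breed, and KRT18 lies at 0.13 over both. CALB2 has no Bama pig point because it had no count there, and the wild boar points of WT1 and BNC1 depend on the prior count.

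Within the GOM the breeds did not differ in any member beyond the threshold. Among the 4 GOM libraries edgeR called 4 of 16615 genes (0.0241%) between the breeds, whereas 1329 genes had an unadjusted p below 0.05 and DESeq2 called 167. The numbers of members called were 0 by edgeR and 0 by DESeq2, and 1 member, UPK1B, had an unadjusted p below 0.05. UPK1B was higher in wild boar by 1.10 on the log2 scale (SE 0.39, adjusted p = 0.611). The value for KRT8 was 0.53 (SE 0.77), for WT1 0.05 (SE 0.55), for BNC1 -0.09 (SE 0.43) and for KRT18 -0.44 (SE 0.82). CALB2 was below the filter of this comparison.

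Animals of the same breed also differed from each other. Wild boar GOM 2 had the lowest TPM of the 4 GOM libraries for WT1, UPK1B, KRT18 and BNC1, and Bama pig GOM 1 the lowest for KRT8. From the lowest to the highest GOM library the TPM rose 1.97-fold for UPK1B, 2.65-fold for BNC1, 4.07-fold for KRT8, 4.21-fold for WT1 and 8.05-fold for KRT18. The members did not rank the libraries alike. Between the Bama pig libraries WT1 was 1.82-fold higher in GOM 1 than in GOM 2, whereas the GOM 1 to GOM 2 ratio of KRT8 was 0.255. Wild boar GOM 1 exceeded GOM 2 for each of the 6 members, by 1.97-fold for UPK1B to 5.67-fold for KRT18 where both had counts.

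The lower members of wild boar GOM 2 came with other levels of that library. The summed TPM of the 6 members was 172 there against 248 to 570 in the other GOM libraries, and the sum of 20 other mesothelial genes was 1040 against 1460 to 1940. In the latter sum SLPI, which was not called between the depots, had 45.33 TPM there against 303.49 to 505.95. GPM6A and ALDH1A2, at 76.68 and 100.99 TPM, were also lowest there. EZR, PTGIS and IGFBP2, at 305.22, 89.43 and 43.53 TPM, lay within the range of the other GOM libraries. The sum of 5 mural and smooth muscle genes was 777 there against 159 to 366 TPM. ACTA2 (actin of smooth muscle), at 528.75 TPM, made up most of it, and MYH11 and DES were also highest there, at 105.26 and 82.89. The others of the list did not follow. PDGFRB, at 13.39 TPM, was lowest there, and RGS5, at 46.94, lay within the GOM range of 13.02 to 126.17. The sum of 7 pancreatic acinar genes was 8.1 TPM there against 0.287 to 0.792, with CLPS, PNLIP and PRSS2 at 1.97, 1.32 and 1.14 TPM and at 0 in the other GOM libraries. In the ULB this sum was 1.46 to 2.4 TPM. Wild boar ULB 2 had CLPS at 0.37 and PRSS2 at 0.57 TPM, and PNLIP was at 0 in every ULB library. Adipocyte genes summed to 12400 TPM in this library and to between 10000 and 18400 in the GOM as a whole. The part of these levels in the differences between GOM libraries was not tested.

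Other mesothelial genes, on a list of 27 that shares no gene with the members, were mostly higher in the GOM as well. Of the 27, 20 had values and 19 were tested. Of these, 11 passed both thresholds, 11 higher and 0 lower in the GOM (57.9% higher, against 2.29% of all genes tested), and 8 did not pass. The median log2 fold change over the 19 was 2.97. Between 8 and 13 of these genes passed in the alternatives.

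The Wnt-pathway agonist RSPO1 showed the largest log2 fold change, 7.02 (SE 0.59, adjusted p = 0.000314), with a TPM of 18.06 to 42.35 in the GOM and of 0.09 to 0.50 in the ULB. LRP2 (megalin, an endocytic receptor) differed by 6.77 (SE 0.63), from 0.19 to 0.26 TPM in the ULB to between 8.52 and 49.97 in the GOM. GPM6A, a membrane glycoprotein, differed by 5.96 (SE 0.38) and reached 170.43 TPM in wild boar GOM 1. The junction and keratin genes DSP (desmoplakin), at 5.05, KRT7, at 4.86, and CXADR (a tight junction protein that serves as a virus receptor), at 4.64, were also higher in the GOM. The other genes past both thresholds were PKHD1L1, ALDH1A2 (a retinoic acid synthesizing enzyme), CLDN1, EZR (ezrin, of microvilli) and CLDN15, with log2 fold changes of 4.40, 4.2, 2.98, 2.97 and 1.83.

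All 11 genes had a higher TPM in each GOM library than in each ULB library, as had 8.28% of all genes tested. The 11 were picked by the depot test on the same libraries, so this is not separate support. SLPI, a secreted protease inhibitor and the gene of this list with the highest median TPM, ranged from 45.33 to 505.95 TPM in the GOM and from 172.79 to 564.48 in the ULB, with a log2 fold change of -0.62 (SE 0.63, adjusted p = 0.610). TBX18, MSLNL and HAS1 also had negative log2 fold changes, -1.35, -2.50 and -2.97, that did not pass, the last on values of at most 1.98 TPM.

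**Figure D3:**
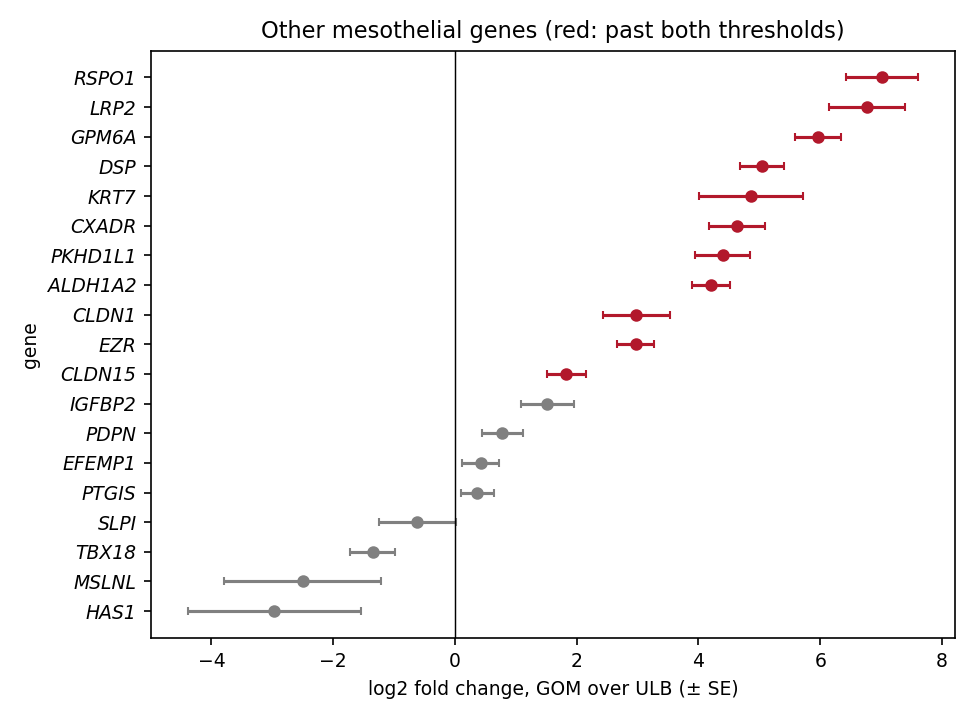
Log2 fold change of GOM over ULB (points) with its SE (bars), derived from the edgeR F statistic, for the 19 tested genes of the list of other mesothelial genes. The 11 genes in red passed both thresholds and lie between 1.83 and 7.02, and the 8 genes in grey did not pass.

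Markers of other epithelia gave 1 call between the depots, among the few of them that could be tested. Of 11 general epithelial genes 7 were tested and 1 passed, CDH1 (E-cadherin), with a log2 fold change of 3.67 (SE 0.79, adjusted p = 0.0317) and a TPM of 15.84 to 30.98 in the GOM. EPCAM, which marks most glandular epithelia, had a TPM of 0.34 to 0.80 in the GOM and of 0.84 to 3.32 in the ULB. CDX2, ELF3, GRHL2 and ESRP1 were below the filter, and 8 of the 11 genes stayed under 1 TPM in every GOM library. The summed TPM of the list was 21.2 to 35.6 in the GOM and 9.26 to 21.6 in the ULB. Of 8 stratified epithelial genes 4 had values and 2 were tested (KRT10 the most abundant, sums of at most 3.25 TPM). Of 3 urothelial genes 2 were tested (UPK3A the most abundant, sums of at most 2.25 TPM). In these 2 lists 0 passed by edgeR or DESeq2, and 0 had an unadjusted p below 0.05. UPK3A, at 1.44 to 2.08 TPM in the GOM and 0.53 to 1.15 in the ULB, did not overlap between depots, like 8.28% of all genes tested. Its log2 fold change was 1.17 (SE 0.53, adjusted p = 0.253 by edgeR), and that of UPK1A was -0.98 (SE 0.66).

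The lists of other tissues and cell types gave 2 calls. Fibroblast and progenitor genes had 1 of 7 (PI16, log2 fold change 2.10, adjusted p = 0.0302), with 4 at an unadjusted p below 0.05 and 3 called by DESeq2. Leukocyte genes had 1 of 8 (CD2, log2 fold change 1.70, adjusted p = 0.0278), with 3 at an unadjusted p below 0.05 and 2 called by DESeq2. By edgeR 0 genes passed among 8 adipocyte, 5 endothelial, 5 mural, 7 liver and 3 pancreatic genes. An unadjusted p below 0.05 was found for 1 gene each of the adipocyte, endothelial, mural and liver lists and for 0 pancreatic genes, and DESeq2 called 1 adipocyte and 1 liver gene. The median log2 fold change was 0.31 for fibroblast, 1.10 for leukocyte, -0.14 for adipocyte, -0.05 for endothelial, 0.22 for mural, 0.89 for liver and -0.11 for pancreatic genes. The most abundant adipocyte gene, FABP4, had 4997.09 to 8298.42 TPM in the GOM and 8298.84 to 9823.38 in the ULB, so both labelled tissues carried fat markers at a high level. The summed TPM of fibroblast genes was 3100 to 4190 in the GOM and 4730 to 8000 in the ULB, and that of leukocyte genes was 250 to 575 and 168 to 306. The fibroblast sum follows its most abundant genes and not the whole list. DCN, COL3A1 and COL1A1 had log2 fold changes of -0.43, -1.24 and -2.07, whereas PDGFRA, LUM, DPP4 and PI16 had 0.93, 0.31, 0.71 and 2.10. The part of these levels in the differences of the members was not tested. DCN, PECAM1, CD163, APOA1 and CEL had the highest median TPM of the fibroblast, endothelial, leukocyte, liver and pancreatic lists. Of the liver list, APOA1 lay at 146.24 to 226.6 TPM in all 7 libraries, whereas ALB was at 77.67 to 873.47 TPM in the 3 Bama pig libraries and at 1.95 to 6.60 in the 4 of wild boar. FGB was at 14.69 to 128.07 TPM in the former and at 1.52 to 2.5 in the latter. APOB, TTR, AHSG and SERPINC1 were likewise higher in every Bama pig library than in every wild boar library.

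Apart from the members themselves, no tested gene next to a member passed the thresholds between the depots. The nearest annotated genes with values on either side of the 9 placed members gave 16 neighbours that are not members. Of these 14 were tested and 0 were called between the depots by edgeR or by DESeq2, and 0 had an unadjusted p below 0.05 in the edgeR fit. Next to WT1 lie EIF3M, at a log2 fold change of 0.26 (SE 0.25), and RCN1, at -0.36 (SE 0.35). UPK1B is flanked by B4GALT4, at 0.05 (SE 0.29), and IGSF11, at -0.44 (SE 0.66). BNC1 is flanked by SH3GL3, at 0.74 (SE 0.49), and HDGFL3, at -0.44 (SE 0.24). These neighbours are named here after their values were seen.

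The genes whose profile was most like that of the members were sought among 11440 genes, by the root mean square difference of log2(TPM + 1), centred and scaled to unit SD over the 7 libraries, from the mean profile of the 6 members. Among the 10 nearest were CDON (0.151 SD away), RAC3, IL6R, FBXL15, ZBTB7C, TGM1, ATP1B1, AXIN2 and CCDC85C, and 433 genes lay within 0.5 SD. CDON, a cell surface co-receptor of Hedgehog proteins, ranged from 37.66 to 105.69 TPM in the GOM and from 11.45 to 17.11 TPM in the ULB. CDON, ZBTB7C, TGM1 and ATP1B1 of the 10 passed both depot thresholds, with log2 fold changes of 2.24, 2.20, 2.36 and 1.34. Among the members themselves KRT8 lay nearest to the mean profile, at 0.238 SD, followed by BNC1, WT1 and UPK1B at 0.366 to 0.372, KRT18 at 0.827 and CALB2 at 1.05 SD. The libraries fall into separate depots, so this likeness over 7 points mainly ranks genes that separate them in the same way.

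At the level of chromatin, the authors' first principal component (PC1) per 20-kb bin was read at the start site of each placed member. A positive PC1 stands for the active compartment A and a negative one for the inactive compartment B. PC1 is centred on each chromosome, so it was compared between libraries at a locus and not between loci. With limma and breed, but not the animal, as a term, 2609 of 113298 autosomal bins (2.3%) had an adjusted p below 0.05 between the depots. Of the 9 start-site bins 2 passed, those of WT1 and UPK1B. With the replicate number as a block in the fit, 0 bins and 0 member start sites passed. The PC1 difference was then 33.79 at WT1 and 22.11 at UPK1B.

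The start site of WT1 lay in compartment A in all 4 GOM libraries and in compartment B in all 3 ULB libraries. PC1 there was 19.94 and 20.97 for wild boar and 25.64 and 35.64 for Bama pig in the GOM, against -5.41 and -7.61 for wild boar and -11.81 for Bama pig in the ULB. The difference was 33.16 (SE 3.89, adjusted p = 0.0196 by limma). The start bin of WT1 was the single one of the 9 with this pattern, which 0.434% of all bins showed. It belonged to a run of 9 such bins over 180 kb, chr2:28300001-28480000, which covered all 3 bins of the WT1 gene. PC1 of every GOM library was above every ULB library over a wider run of 560 kb, chr2:28040001-28600000. That run also holds the start sites of QSER1, PRRG4, CCDC73 and EIF3M, none of which passed the depot thresholds of the expression test, with log2 fold changes of -0.15, -0.27, -3.18 and 0.26.

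The start site of UPK1B differed in degree. In the GOM, PC1 there was 26.37 and 19.98 for wild boar and 16.52 and 23.07 for Bama pig, whereas the ULB libraries gave -0.42 and 7.56 for wild boar and -4.04 for Bama pig. The difference was 21.30 (SE 3.27, adjusted p = 0.0251 by limma). All GOM libraries were in A, and 1 of the 3 ULB libraries, wild boar ULB 2, was in A as well. The run of bins with every GOM library above every ULB library spanned 160 kb, and UPK1B was the one gene with expression values whose start site was placed in it. B4GALT4, which starts before the run and ends in it, had a log2 fold change of 0.05 (SE 0.29). The gene sits on the slope between an A and a B stretch.

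BNC1 showed the same order without passing. Its start-site PC1 in the GOM was 12.28 and 5.01 for wild boar and 11.06 and 20.98 for Bama pig, and in the ULB 0.57 and -1.80 for wild boar and 2.95 for Bama pig, with a difference of 10.79 (SE 3.31, adjusted p = 0.114). Every GOM library exceeded every ULB library over a run of 280 kb. The neighbouring start sites of KRT8 and KRT18 were in A in all 7 libraries. KRT8 differed by 9.59 (SE 3.14, adjusted p = 0.132) and KRT18, whose expression did not differ beyond its spread, by 10.05 (SE 2.72, adjusted p = 0.0860), and both lie in the same run of 140 kb with GOM above ULB.

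**Figure D4:**
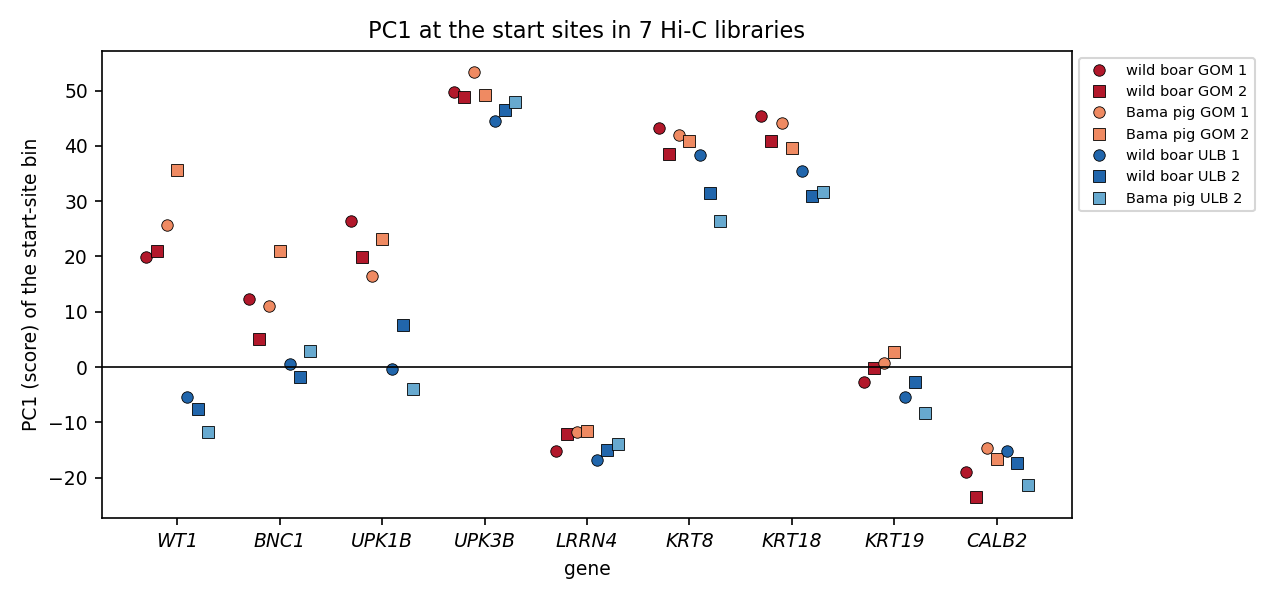
PC1 of the 20-kb bin at the start site of the 9 placed genes in each of the 7 Hi-C libraries (circles, replicate 1; squares, replicate 2). At WT1 the 4 GOM libraries lie above 0 and the 3 ULB libraries below 0, and the depots overlap at LRRN4 and CALB2 but not at the other 7 genes.

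The members without expression values were UPK3B, a uroplakin of mesothelium and urothelium, LRRN4, a leucine-rich repeat membrane protein, and KRT19, a type I keratin. UPK3B (chr3:9878375-9886690) had PC1 values of 48.75 to 53.36 in the GOM and of 44.58 to 47.86 in the ULB, A in all libraries, with a difference of 3.60 (SE 2.47, adjusted p = 0.434). KRT19 (chr12:21115453-21119115) lay near the border, with -2.70 to 2.72 in the GOM and -8.37 to -2.78 in the ULB, a difference of 5.61 (SE 2.73, adjusted p = 0.273). LRRN4 (chr17:14895954-14908112) was in B in all 7 libraries, at -15.12 to -11.56 in the GOM and -16.78 to -13.92 in the ULB. CALB2 was in B in all 7 as well, with a difference of -0.71 (SE 3.05, adjusted p = 0.919).

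In all, PC1 of every GOM library exceeded that of every ULB library at 7 of the 9 start sites, all but LRRN4 and CALB2, against 9.17% of all autosomal bins. KRT8 and KRT18 share a run and are not separate observations. Between the breeds 11 of 113298 bins passed (0.00971%), and 0 of the 9 start sites were among them. The smallest unadjusted p for breed at these start sites was 0.110 by limma, at BNC1. The PC1 calls depend on single libraries: without wild boar ULB 1, or without the Bama pig ULB library, limma called 0 autosomal bins, with 18601 and 14407 bins at an unadjusted p below 0.05 against 24005 with all libraries. At WT1 the difference was then 35.26 (adjusted p = 0.0729) and 26.97 (adjusted p = 0.116). The UPK1B call was also lost without wild boar GOM 1, Bama pig GOM 1 or Bama pig GOM 2, with differences of 19.93 to 22.11 and adjusted p between 0.0553 and 0.0626. The direction at both start sites was kept in each alternative.

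The list of other mesothelial genes had 24 placed start sites, of which 6 passed the PC1 test, 6 higher and 0 lower in the GOM, beside 2.3% of all autosomal bins. These were ALDH1A2, with a difference of 27.53 (SE 3.99, adjusted p = 0.0233), CXADR, at 19.65 (SE 2.65, adjusted p = 0.0197), LRP2, at 16.98 (SE 3.14, adjusted p = 0.0355), RSPO1, at 15.79 (SE 3.17, adjusted p = 0.0433), CLDN1, at 15.46 (SE 2.74, adjusted p = 0.0318), and PKHD1L1, at 12.97 (SE 2.55, adjusted p = 0.0412). All 6 were also called higher in the GOM by expression. CLDN1 lay in A in every GOM library, at 2.77 to 6.66, and in B in every ULB library, at -17.35 to -5.39. GPM6A did not pass, with a difference of 19.80 (SE 4.32, adjusted p = 0.0518 by limma). Its PC1 in the GOM was -0.87 and -1.66 for wild boar, near the border, and -0.20 and 16.42 for Bama pig. The ULB values were lower, at -20.31 and -13.61 for wild boar and -17.84 for Bama pig. Of the other lists 1 start site passed, that of CDH1 among the 11 general epithelial genes. PC1 of CDH1 was 5.64 to 21.50 in the GOM and -14.29 to -6.28 in the ULB, a switch between A and B in all 7 libraries with a difference of 23.21 (SE 4.03, adjusted p = 0.0300 by limma). As 0 bins passed without wild boar ULB 1, without the Bama pig ULB library or with the replicate block, these 7 calls were lost there too.

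**Figure D5:**
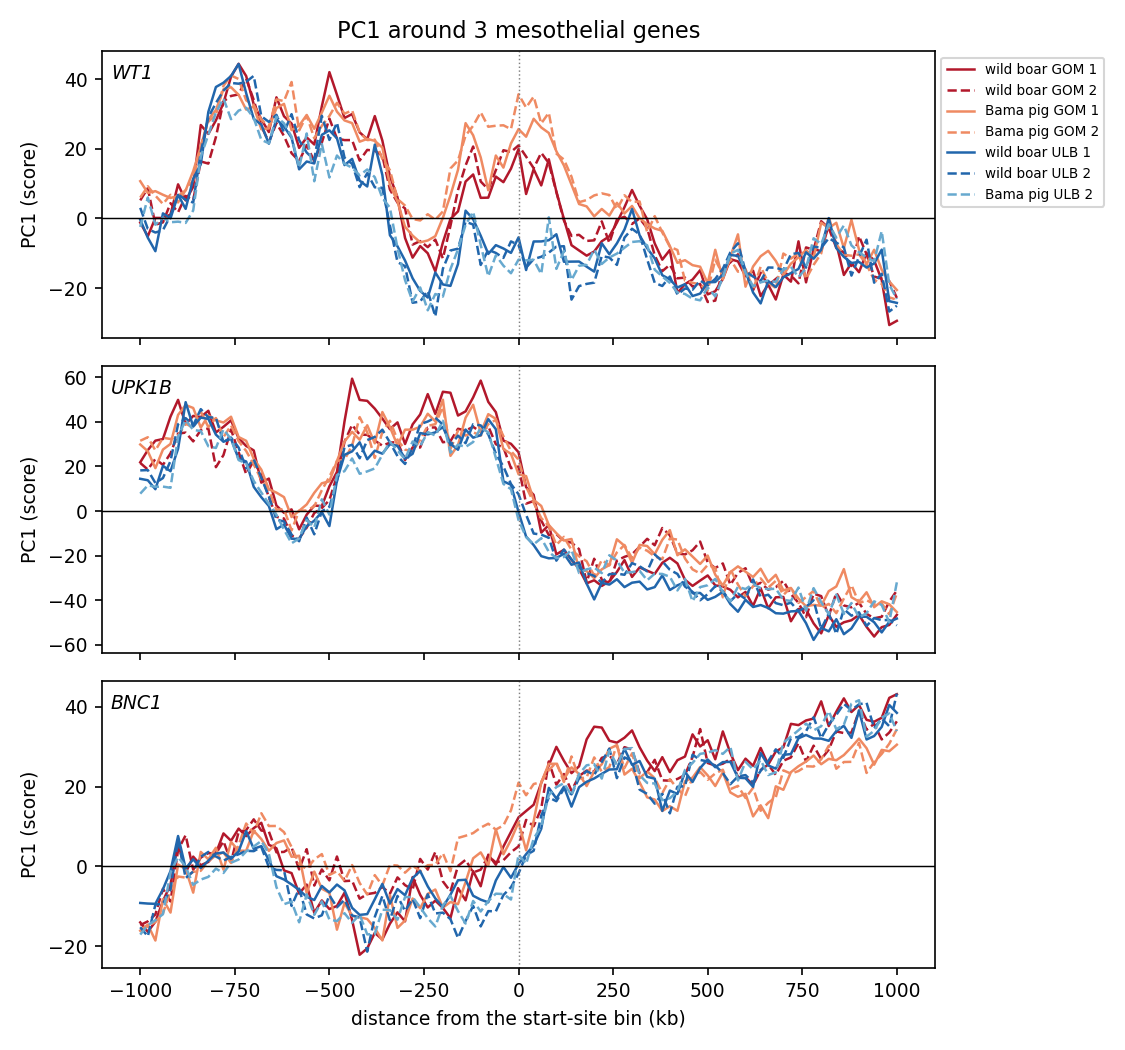
PC1 per 20-kb bin against the distance from the start-site bin, from -1000 to 1000 kb, around WT1, UPK1B and BNC1 in 7 Hi-C libraries (solid, replicate 1; dashed, replicate 2). Around WT1 the GOM lines rise above 0 where the ULB lines stay below it, while at UPK1B and BNC1 the GOM lines are shifted along a slope.

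Topologically associating domains (TADs) were called by the authors on merged replicates, 1 list per breed and depot, so that their borders have no replicate check, and the Bama pig ULB list includes a library not analysed here. BNC1 lay in a short TAD in the GOM, chr7:51460001-51700000 (240 kb) in Bama pig and chr7:51500001-51700000 (200 kb) in wild boar. In the ULB of both breeds it lay in a TAD of 680 kb, chr7:51000001-51680000. The TAD of UPK1B ended at 141080000 on chromosome 13 in the GOM of both breeds and at 141040000 in the ULB of both. The TAD of WT1 was 440 to 460 kb long in all 4 lists and ended at 28520000 on chromosome 2 in the GOM and at 28540000 in the ULB, 1 bin of 20 kb further. UPK3B was in no TAD of the Bama pig GOM list and in a TAD of 300 to 380 kb in the other lists. KRT8 and KRT18 shared a TAD in every list. These TAD borders were compared without a test.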

How the data were processed

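For RNA-seq, the authors deposited a table of estimated counts and a table of TPM values for protein-coding genes, quantified with Kallisto (version 0.43.0 in the submitters' processing notes) on Sscrofa11.1, without normalization between libraries. For Hi-C, the authors deposited, for each library, the PC1 score of 20-kb bins, computed from KR and quantile normalized contacts, with the sign set by gene density. The file names call this score an A-B index, but its values are centred on each chromosome as PC1 is. The authors also deposited TAD starts and ends called on merged replicates. The depth behind PC1 and TADs is unknown, since no contact counts come with them.

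Groups, breeds and depots came from the labels. Estimated counts were rounded and tested with edgeR 4.0.16 (quasi-likelihood F test, TMM, Benjamini-Hochberg adjustment) after keeping genes that exceed 0.1 TPM in all libraries of at least 1 group. PC1 was tested with limma 3.58.1, and DESeq2 1.42.0 in R 4.3.3 was an alternative. All tests were two-sided. The SE of an edgeR value is its absolute log2 fold change divided by the square root of its F statistic. Gene positions were looked up by symbol in the RefSeq annotation of Sscrofa11.1, of which 18 of 18 autosomes have the lengths found in the Hi-C values. Coordinates count from 1. The fits were tested on simulated data.

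The members, lists, tests and alternatives were chosen with earlier results of these data known. Named genes were the members, up to 6 genes past both thresholds per list with the largest change and the most abundant gene of each list, the 10 genes most like the members (1 of which is not reported here), and neighbours past the thresholds. Other genes named (PKHD1L1, ALDH1A2, CLDN1, EZR, CLDN15, TBX18, MSLNL, HAS1, PTGIS, IGFBP2, EPCAM, CDX2, ELF3, GRHL2, ESRP1, UPK1A, ALB, APOB, TTR, FGB, AHSG, SERPINC1, CLPS, PNLIP, PRSS2, QSER1, PRRG4, CCDC73 and the neighbours) were chosen after their values were seen. Counting floors cover counting error only.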

Additional observations from a re-analysis of the deposited data

Results flagged for a closer look

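By Dixon's 95% criterion for 4 samples, chance alone marks about 1 in 20 groups. In the GOM, UPK1B had a gap ratio of 0.959 on log2(TPM + 1), set by wild boar GOM 1 at 103.94 TPM above the other 3 libraries. CALB2 had a ratio of 1.0, since wild boar GOM 1, at 10.33 TPM, was the single GOM library with counts. With the other 3 libraries tied at 0, the ratio is 1.0 whatever the value of wild boar GOM 1. BNC1 had a ratio of 0.857, set by wild boar GOM 2 at 5.98 TPM below the others. PC1 at the start site of LRRN4 had a ratio of 0.84, set by wild boar GOM 1 at -15.12. The cause of these 4 values was not tested.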

How the results depend on the processing

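The 4 members called between the depots (WT1, BNC1, UPK1B and KRT8) were called under all 16 alternatives of that comparison, 0 members were called in the 8 alternatives by breed in the GOM and in the 7 for the interaction, and between 8 and 13 other mesothelial genes were called, a count for which the alternatives were added after seeing the data. The number of all genes called between depots was 1399 with DESeq2, 999 without a filter, 416 with limma on log2(TPM + 0.5), 379 in wild boar alone and 251 to 655 when leaving out each library, lowest without the Bama pig ULB library and also below 640 by over 1.5 times without wild boar GOM 1 (408), wild boar ULB 1 (288) or wild boar ULB 2 (353). Between breeds in the GOM it was 167 with DESeq2, 26 without a filter, 75 over all 7 libraries and 0 to 115 when leaving out each library (115 without wild boar GOM 1, 70 without wild boar GOM 2). The interaction gave 52 with DESeq2 and 0 to 1 when leaving out 1 of 6 libraries, and it could not be fitted without the Bama pig ULB library. For PC1, wild boar alone gave 0 bins and 0 member start sites, and leaving out each library 0 to 700 bins and 0 to 2 member start sites, never more than with all libraries.

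Uncalled values changed sign. Between the depots CALB2 was -0.28 with limma on log2(TPM + 0.1), and leaving out each library gave -4.95 to 3.64 for CALB2 and -0.59 to 1.35 for KRT18. Between breeds in the GOM WT1 was -0.052 with upper-quartile factors, -0.23 over all 7 libraries and -0.98 to 0.63 when leaving out each library, where KRT8 ran from -0.58 to 1.94, KRT18 from -1.94 to 0.27 and BNC1 from -0.65 to 0.30. The PC1 difference at CALB2 ran from -4.96 to 1.45 there. The cause was not tested.

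The replicate numbers are not stated to mark an animal. Deviations of same-numbered wild boar libraries from their group means correlated at r = 0.154 across 17877 genes, for 1 pair of groups. This value cannot settle whether same-numbered libraries share an animal. The same pigs gave both depots, and the main fits do not model this pairing. With the replicate block, 793 genes, 4 members and 12 other mesothelial genes were called between depots, whereas 0 PC1 bins and 0 member start sites were (20287 bins at an unadjusted p below 0.05, WT1 at 33.79 with adjusted p = 0.0931 and UPK1B at 22.11 with adjusted p = 0.0953, both by limma). With 4 against 3 libraries, and 1 for Bama pig ULB, small differences were not detectable.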
